A study of Caenorhabditis elegans with 2 samples.

Results

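The genes described are the protein-coding genes of the nematode Caenorhabditis elegans whose names start with sec-, rab-, arf-, arl- or vps-, without vps-34 and vps-15. The genes were selected on their names, and the name families and the peaks described were chosen by the signals of the IDR and pooled lists of these same data. They were 77 of 19973 protein-coding genes of the nuclear chromosomes, 19 of them sec-, 20 rab-, 3 arf-, 6 arl- and 29 vps- genes. ChIP-seq for the transcription factor HIF-1 was done in strain OR3349, a stable transgenic line in which HIF-1 carries a GFP-FLAG tag at its C-terminus, with an antibody against GFP. The animals were whole L4 larvae of mixed sex, grown for 52 hours from L1 larvae that had been synchronized by starvation. They form 1 group of 2 biological replicates, both with the tagged protein, and no other condition was analysed here. The sources used here do not state an oxygen level.

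Proteins made for export or for the cell's membranes enter the endoplasmic reticulum (ER) through the Sec61 channel, leave it in vesicles coated with COPII, pass the Golgi and reach the cell surface or the endosomes and lysosomes. Small GTPases of the Rab, Arf and Arl families mark each compartment and recruit coats, motors and tethers, and SNARE proteins fuse the membranes. The products of the vps genes, named after vacuolar protein sorting mutants of budding yeast, tether endosomes, return receptors to the Golgi and form the ESCRT machinery, which sorts membrane proteins into vesicles inside endosomes. HIF-1, the hypoxia-inducible factor, binds DNA at a recognition element with the core RCGTG, where R is A or G.

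A peak is a region of the authors' list at the optimal threshold of the irreproducible discovery rate (IDR), a procedure that sets a cutoff from how ranks recur between replicates. A single peak of the list need not be present in both replicate lists, as the one at sec-61.A below shows. The IDR list held 3531 peaks with signals from 95.1 to 7830, and these were the 3531 strongest of 30000 pooled candidate regions, which by design include background. The signal is a value the authors give each region relative to a control. Lists are not on 1 scale, so replicate values are given with their rank among the 30000 regions of their own list. A promoter peak has its summit between 1000 bp upstream and 200 bp downstream of a transcript start of the gene. Positions are on ce11, the same assembly as WBcel235, and the depth of the libraries is unknown because the files hold no read counts. Whole larvae mix all tissues, so a signal cannot be assigned to a cell type. Expression was not measured, and a peak gives a position near a gene.

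The summits of the strongest promoter peaks are shown first, since they show which strong sites hold the HIF-1 core and which do not. They are 5 of the 7 strongest, each as the summit base with 50 bases on either side, 5′ to 3′ on the strand of the named gene, with RCGTG or its reverse complement in capitals.
rab-7: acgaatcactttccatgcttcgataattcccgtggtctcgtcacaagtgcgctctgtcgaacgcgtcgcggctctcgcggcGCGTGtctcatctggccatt
sec-61.G: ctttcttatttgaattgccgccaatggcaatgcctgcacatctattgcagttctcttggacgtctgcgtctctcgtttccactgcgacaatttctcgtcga
sec-61.B: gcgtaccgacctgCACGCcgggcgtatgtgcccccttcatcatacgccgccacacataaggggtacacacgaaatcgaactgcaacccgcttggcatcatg
vps-60: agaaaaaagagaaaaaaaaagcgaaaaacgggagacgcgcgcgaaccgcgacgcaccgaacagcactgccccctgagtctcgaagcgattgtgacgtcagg
sec-3: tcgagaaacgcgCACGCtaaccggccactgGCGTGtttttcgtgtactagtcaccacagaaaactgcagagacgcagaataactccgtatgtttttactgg
The windows lie at chrII:11967673-11967773, chrV:10897324-10897424, chrIV:2389082-2389182, chrV:8606443-8606543 and chrX:3099959-3100059, all on the minus strand. RCGTG occurs in 3 of the 5 (rab-7, sec-61.B and sec-3) and in neither the sec-61.G nor the vps-60 window. Of all promoter peaks, 42.4% held it within 50 bp of the summit, and the difference was not tested with so few windows. The nearest sites lay 33, 35 and 18 bp from the summits of rab-7, sec-61.B and sec-3. Among the 7 strongest, the windows of vps-51, which held RCGTG, and rab-5, which did not, are not printed.

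A promoter peak was present at 32 of the 77 genes (41.6%, exact 95% binomial interval 30.4% to 53.4%), against 12.2% of all protein-coding genes. The genes were chosen with results of these data known, so this share is a description and was not tested. By name stem, the counts were 9 of 19 sec- genes, 10 of 20 rab- genes, 2 of 3 arf- genes, 0 of 6 arl- genes and 11 of 29 vps- genes. Every one of the 32 had exactly 1 promoter peak and no 2 of them shared one. When a peak was counted only for the gene with the nearest start, 20 of the 77 genes had one, against 9.31% of all genes. When only peaks in the window of no other gene counted, 11 did, against 6.5% of all genes.

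**Figure D1:**
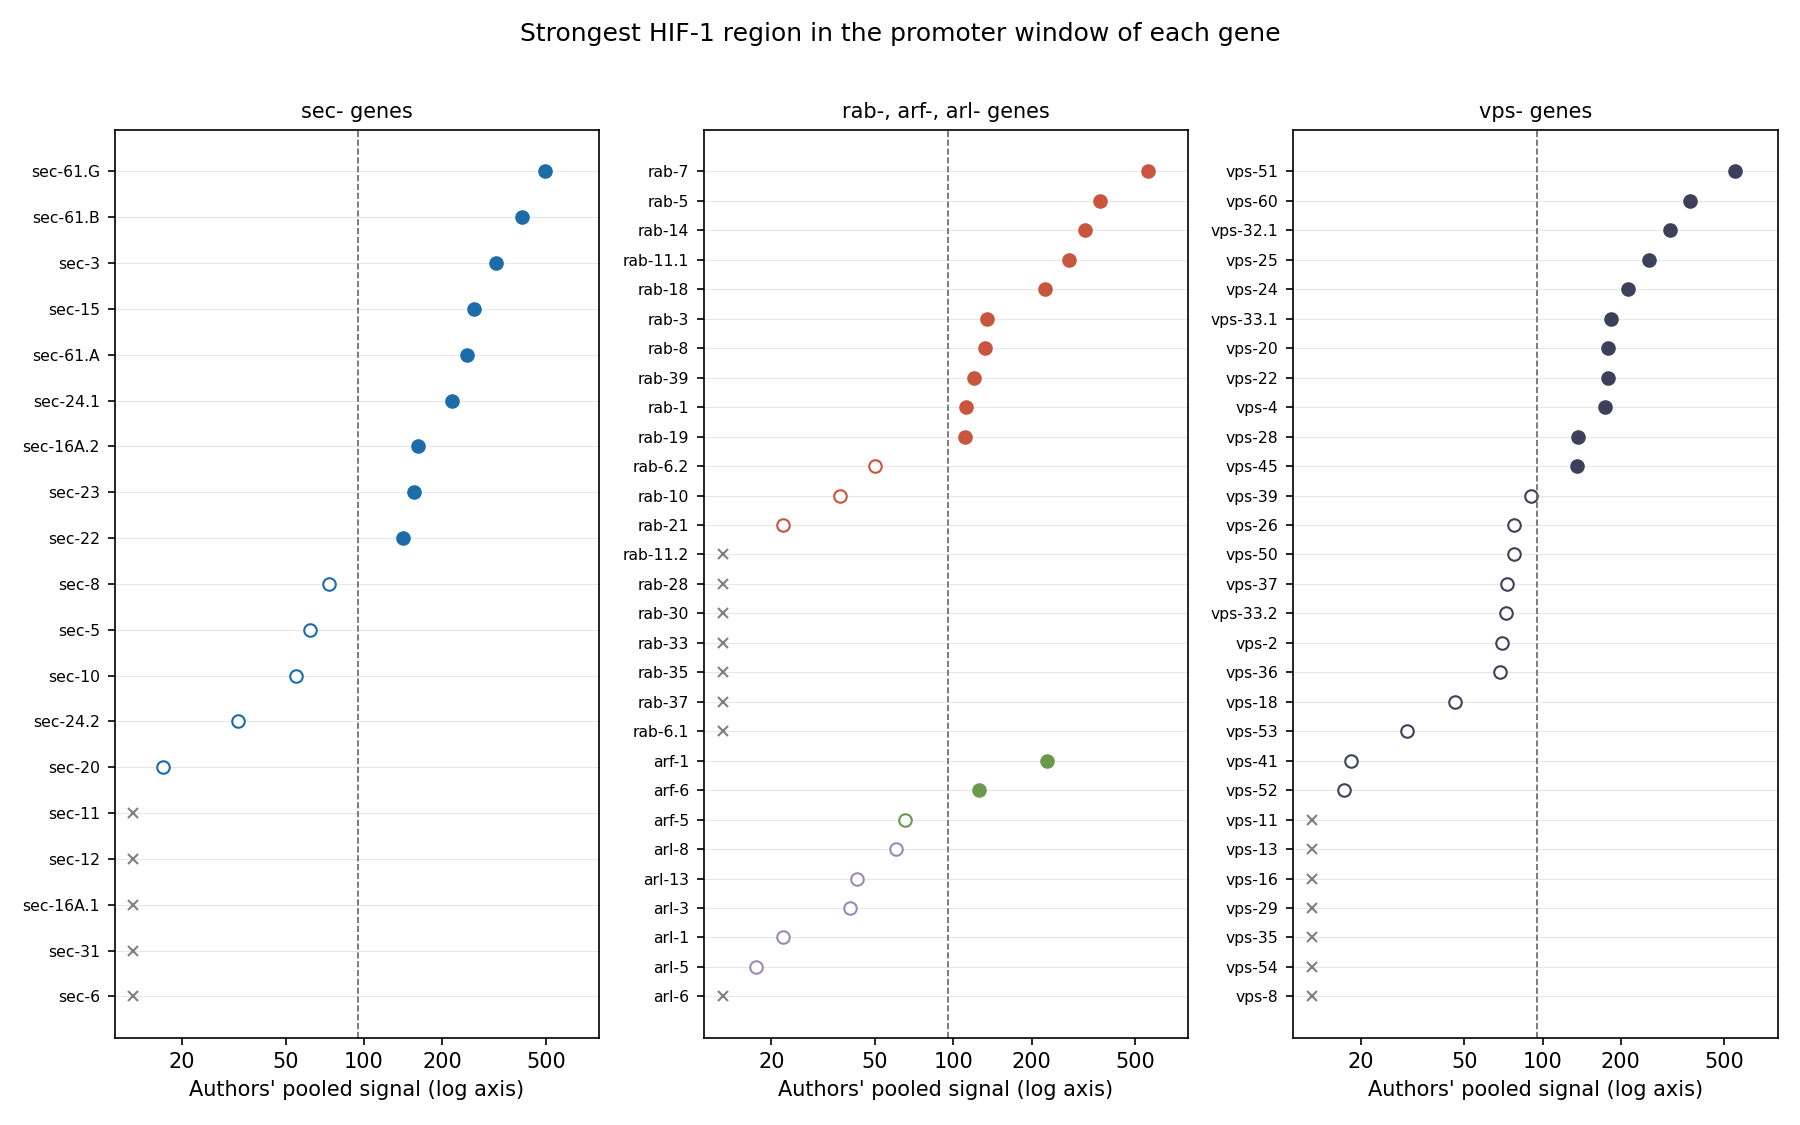
Signal of the strongest pooled candidate region in the promoter window of each of the 77 genes (log axis), by name stem. Filled points are IDR peaks, open points are candidate regions below the IDR threshold, crosses at the left edge mark genes with no candidate region in the window, and the dashed line is the lowest IDR signal, 95.1; no arl- gene reaches it.

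The signals at these genes were moderate. Their peaks ran from 111 to 561 with a median of 216, against a median of 171 over the 2010 IDR peaks in promoter windows and a highest value of 4447 there. Among the 353 strongest peaks of the IDR list were 4 of the 32 (12.5%), close to the 11.4% of all promoter peaks. Among the 1765 strongest were 22 of the 32 (68.8%), against 54.4% of all promoter peaks, and counted over genes 28.6% of the 77 against 7.1% of all genes. By stem, the median signal was 248 for sec-, 180 for rab- and 183 for vps- genes, with ranges that overlap throughout.

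Both replicates showed most of these peaks, though the IDR list was itself made from both. A candidate region with its summit within 100 bp was present in replicate 1 for all 32 and in replicate 2 for 31, so 96.9% were found in both, against 96.6% of all promoter peaks. Replicate 1 signals of those 31 ran from 27.1 to 222 with a median of 73.2, and replicate 2 signals from 63.7 to 345 with a median of 132. When the replicate lists were limited to their 3531 strongest regions, 25 of the 32 (78.1%) were found in both, against 72.8% of all promoter peaks. The other 7 were sec-23, rab-19, arf-6, vps-28, vps-33.1 and vps-45, which ranked below 3531 in replicate 1, and sec-61.A, which was not in the replicate 2 list.

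**Figure D2:**
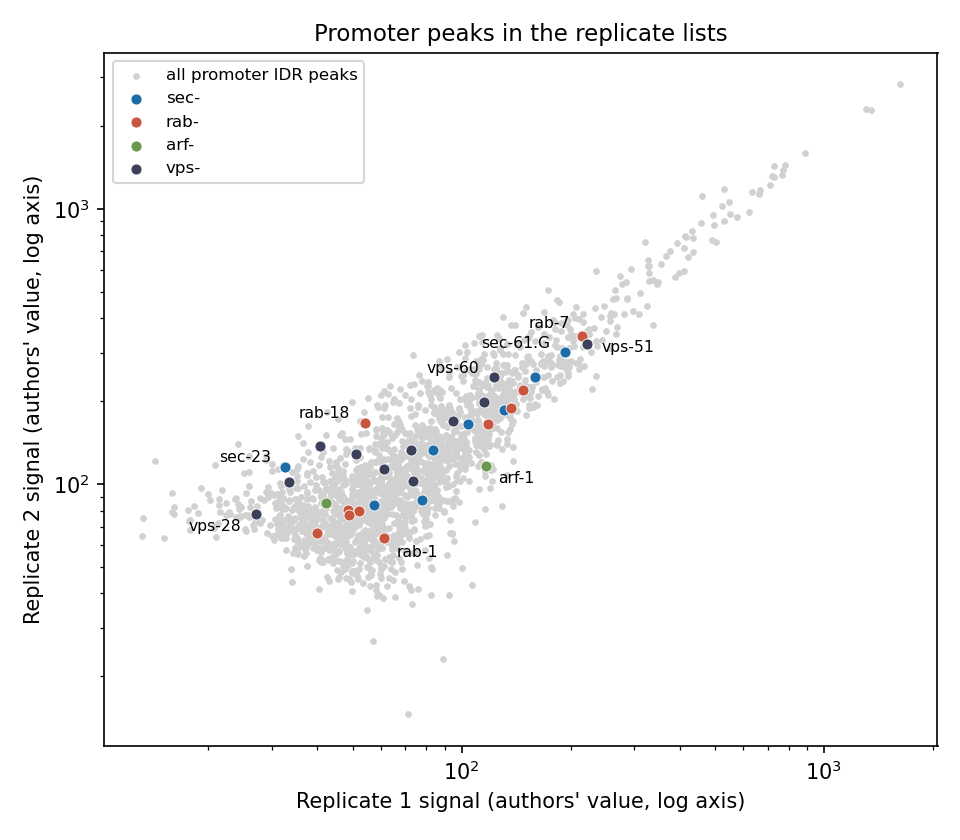
Signal in the replicate 2 list against the replicate 1 list (log axes, authors' values) for the IDR peaks in promoter windows found in both lists; grey points are all such peaks and coloured points the 31 at sec-, rab-, arf- and vps- genes. The coloured points lie inside the grey cloud, from 27.1 to 222 in replicate 1 and from 63.7 to 345 in replicate 2.

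Entry into the ER was represented by the 3 subunit genes of the Sec61 channel, and all 3 had a promoter peak, against 12.2% of all genes. The gene of the gamma subunit, sec-61.G, had the highest signal of the sec- genes, 496, at chrV:10897226-10897518 with its summit 231 bp upstream. Its values were 193 (rank 193) in replicate 1 and 300.5 (rank 227) in replicate 2, so it stood at like ranks in both. The beta subunit gene sec-61.B had a signal of 404 at chrIV:2388980-2389297, with 160 (rank 294) and 244 (rank 373) in the replicates. This summit, shown above, lay 457 bp from the start of sec-61.B and 313 bp from that of trap-3, which encodes a subunit of the translocon-associated protein complex and is transcribed in the opposite direction. Both genes flanking this peak thus act at the same step. The peak of the alpha subunit gene sec-61.A, with a signal of 248 at chrIV:14825115-14825293, lay 77 bp inside the transcript, in the 5′ UTR, and also 492 bp upstream of rps-18, a ribosomal protein gene. It ranked 751 in replicate 1, whereas replicate 2 had 0 candidate regions within 2000 bp of it. The remaining gene of the 4, sec-11, encodes a signal peptidase subunit and had no promoter peak.

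The COPII coat and its ER exit sites had promoter peaks at 3 of 7 genes (exact 95% interval 9.9% to 81.6%), against 12.2% of all protein-coding genes. The role of 1 of the 3, sec-16A.2, was assigned after its values were seen. The peak of sec-24.1, a cargo-binding coat subunit, had a signal of 217 at chrIV:11566252-11566453, with 83.6 (rank 1182) and 133 (rank 1121) in the replicates and its summit 153 bp upstream. The peak of sec-16A.2, an exit-site scaffold gene, had 162 with ranks 1340 and 2093. The peak of sec-23, which encodes the partner of Sec24 in the inner coat, had 156, and its replicates differed, with 32.6 (rank 5729) against 116 (rank 1369). That peak lay closer to the divergent gene dcs-1 (179 bp) than to sec-23 (341 bp). Of their paralogues, sec-24.2 had only a candidate region of 32.8 and sec-16A.1 had none. The outer coat gene sec-31 also had no candidate region in the window. No pooled region lay in the window of sec-12, the exchange factor for the GTPase that starts the coat, but each replicate list held 1.

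Of the 6 exocyst genes, whose complex tethers secretory vesicles at the plasma membrane, 2 had a promoter peak. The exact 95% interval, 4.33% to 77.7%, holds the 12.2% of all protein-coding genes. The peak of sec-3, shown above, had a signal of 322 at chrX:3099905-3100157, 157 bp upstream, with rank 455 in replicate 1 and rank 635 in replicate 2. The peak of sec-15 had 266 at chrX:8835874-8836253, with ranks 765 and 787. Its summit lay 317 bp upstream of sec-15 but 16 bp inside C28G1.2, in the 5′ UTR of that gene, and it was the single peak of the 32 within 250 bp of a tRNA gene. The subunit genes sec-8 (73.4), sec-5 (61.8) and sec-10 (54.8) had only candidate regions, and sec-6 had no pooled candidate region in the window, with its nearest IDR summit 1149 bp upstream (signal 519). Of the SNARE genes, sec-22 had a peak of 141 (ranks 2277 and 2225) at chrX:1035229-1035334, 269 bp upstream and 7 bp inside the divergent stau-1, whereas sec-20 had a candidate region of 16.9.

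Among the Rab GTPase genes, the 4 strongest peaks were at rab-7, rab-5, rab-14 and rab-11.1, which act on late endosomes, early endosomes, endosomes and phagosomes, and recycling endosomes. The peak of rab-7 was the strongest of all 32, with a signal of 561 and rank 162 in the IDR list (chrII:11967558-11967911), and gave 216 (rank 151) and 345 (rank 180) in the replicates. Its summit, shown above, lay 792 bp upstream of rab-7, 179 bp upstream of W03C9.5 and 914 bp upstream of the divergent mex-1. The peak of rab-5 had 368 at chrI:9307585-9307883, with 148 (rank 344) and 219 (rank 458), and lay 685 bp upstream. The peak of rab-14 had 321 at chrX:15606865-15607307, with 137 (rank 407) and 189 (rank 617), and lay 442 bp upstream. The peak of rab-11.1 had 279 at chrI:110584-110862, with 118 (rank 581) and 165 (rank 785). It lay 681 bp upstream of rab-11.1 and 300 bp upstream of the divergent ribosomal protein gene rpl-7. All 4 lay in windows shared with another gene, and all 4 were within the strongest 785 regions of each replicate. The Rab genes were not grouped by compartment, so no share of genes with a peak is given by compartment.

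The remaining Rab peaks were weaker. The peak of rab-18, whose mammalian counterpart is found on lipid droplets and the ER, had 225 at chrIII:1080635-1080855. It lay 31 bp inside the transcript, and ranked 2490 in replicate 1 and 772 in replicate 2. The peak of rab-3, the GTPase of synaptic vesicles, had 135 (48.5 and 80.3 in the replicates) and lay in an intron of rab-3 itself, 613 bp upstream of the nearest transcript start. The peak of rab-8, which acts between the Golgi and the plasma membrane, had 132 and lay nearer to D1037.1 (107 bp) than to rab-8 (588 bp). The 3 weakest of the Rab peaks were at rab-39 (120), rab-1 (112), the GTPase of transport from the ER to the Golgi, and rab-19 (111). These were also the 3 weakest of all 32. Among the 10 Rab genes without a peak, rab-6.2 (50.1), rab-10 (36.7) and rab-21 (22.1) had only candidate regions, and rab-6.1, rab-11.2, rab-28, rab-30, rab-33, rab-35 and rab-37 had no pooled candidate region in the window. Of the paralogues rab-11.1 and rab-11.2, the first had a peak and the second had no region in its window.

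The Arf GTPases recruit coats to the Golgi and act at the plasma membrane. The peak of arf-1, which encodes a recruiter of the COPI coat, had a signal of 229 at chrIII:5715567-5715826, in an intron of arf-1 and 416 bp upstream of its nearest start, with 117 (rank 604) and 116 (rank 1363) in the replicates. The peak of arf-6, the Arf of the plasma membrane and endosomes, had 125 at chrIV:16946870-16947046, with 42.2 (rank 3712) and 85.1 (rank 2196). It lay 168 bp upstream of arf-6 and 152 bp upstream of Y116A8C.9, which runs the other way. The third gene, arf-5, had a candidate region of 65.4. None of the 6 Arf-like genes had a promoter peak. This count allows a share of up to 45.9% (exact 95% interval), which includes the 12.2% of all protein-coding genes. Their strongest candidate regions were 60.5 at arl-8, which acts on lysosomes, 42.7 at arl-13 and 40.1 at arl-3, which act in cilia, 22.1 at arl-1 and 17.5 at arl-5, both linked to the Golgi (arl-5 from mammals), while arl-6, a partner of the ciliary BBSome, had none.

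The vps- genes are given by complex, and differences between complexes were not tested. The ESCRT machinery had promoter peaks at 8 of 11 genes (exact 95% interval 39% to 94%), against 12.2% of all protein-coding genes. All 11 had a candidate region, against 36.4% of all genes, and 4 of the 8 peaks also lay in the window of another gene. The peaks of the ESCRT-III genes were at vps-60 (369, chrV:8606352-8606643), vps-32.1 (309), vps-24 (214) and vps-20 (179). Replicate values were 123 (rank 525) and 245 (rank 367) for vps-60 and 115.5 (rank 619) and 199 (rank 561) for vps-32.1. The vps-24 and vps-20 summits lay 3 bp upstream and 24 bp downstream of the transcript start, and both peaks also lay in the window of an eif- gene, eif-1 and eif-4A3. Of the ESCRT-II genes, vps-25 had 257 at chrI:12736670-12737002, in its own intron, and vps-22 had 178, nearer to C27F2.9 (61 bp) than to vps-22 (612 bp). The third, vps-36, had an IDR summit with a signal of 204 lying 1003 bp upstream, just outside the window, and a candidate region of 68.7 inside it. The ATPase gene vps-4, whose product takes ESCRT-III apart, had 174 at chrI:1067067-1067245 with ranks 2045 and 1410. The ESCRT-I gene vps-28 had 136. The replicate 1 region within 100 bp of that summit was the weakest of the 32 (27.1, rank 8099), against rank 2478 in replicate 2, but the strongest replicate 1 region in the vps-28 window had 60.7. The genes vps-37 (73.0) and vps-2 (69.8) had only candidate regions.

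Of the 5 genes of the GARP and EARP tethers, which receive vesicles from endosomes, 1 had a peak (interval 0.505% to 71.6%): vps-51, the second strongest of the 32 with 551 at chrI:5807252-5807687, and 222 (rank 142) and 323 (rank 203) in the replicates. Its summit lay almost midway between divergent starts, 217 bp from vps-51 and 201 bp from lin-35, the C. elegans retinoblastoma gene. Of the 8 genes of the HOPS and CORVET tethers, 1 had a peak, vps-33.1 (183, ranks 3927 and 1050). That is 12.5% (interval 0.316% to 52.7%), near the 12.2% of all protein-coding genes. None of the 3 retromer genes had a peak (interval up to 70.8%), so the intervals of all 4 groups overlap. The intervals of the groups other than ESCRT also hold the 12.2%. The SM protein gene vps-45, whose product regulates endosomal SNAREs, had a peak of 135 with its summit 3 bp inside the transcript, and vps-13, a lipid transfer protein gene, had no candidate region in the window.

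**Figure D3:**
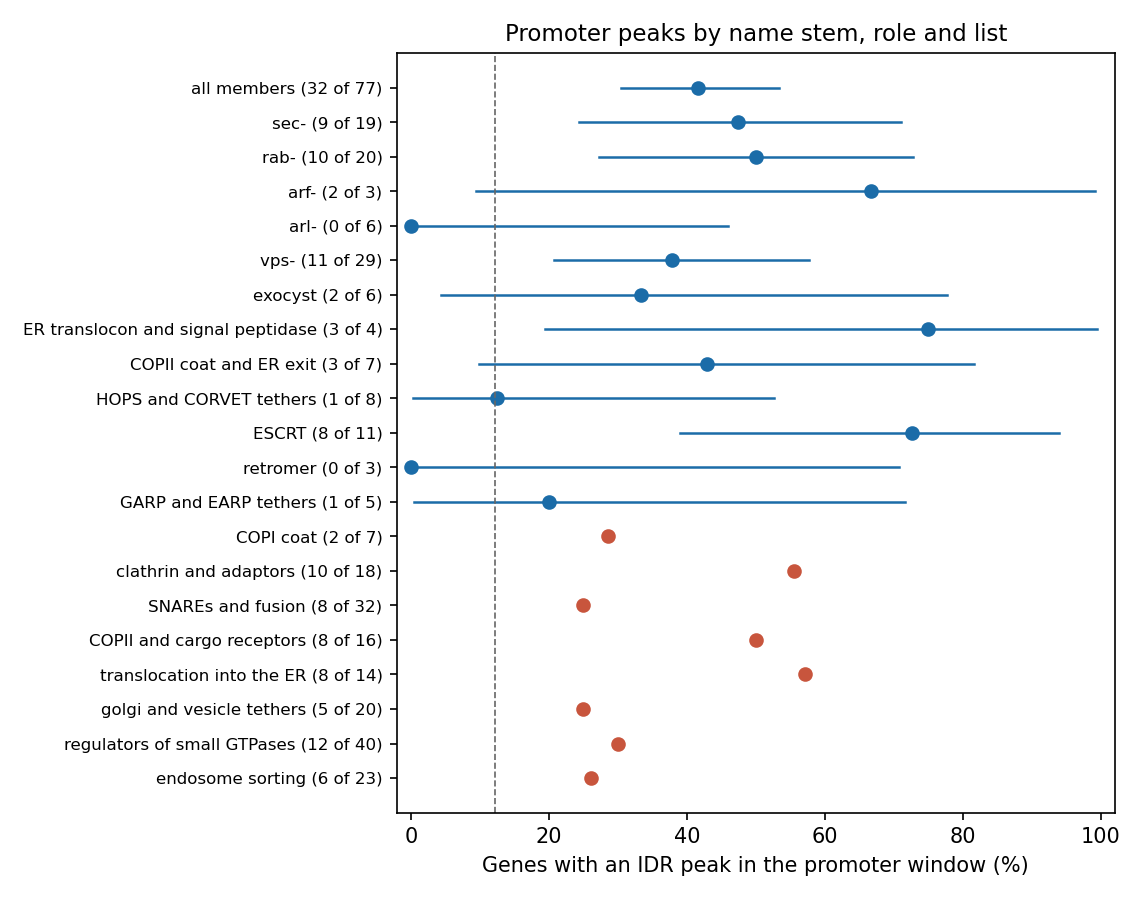
Percentage of genes with an IDR peak in the promoter window, with the counts beside each name. Blue points are the 77 genes by name stem and by complex (groups of 2 genes are not drawn), with exact 95% binomial intervals over genes, red points are lists of other trafficking genes, and the dashed line is the share of all protein-coding genes, 12.2%; ESCRT stands at 8 of 11 and retromer and arl- genes at 0.

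Below the threshold, 25 further genes had a pooled candidate region in the window, so 57 of the 77 had a region of any strength (74%), against 36.4% of all protein-coding genes. Among genes with a candidate region, 56.1% of these genes and 33.4% of all genes had an IDR peak. Just inside the threshold stood rab-19 (111) and rab-1 (112), and just outside it vps-39 (90.3), a HOPS subunit gene, with rank 3764 in the pooled list. Next came the retromer gene vps-26 (77.9), the EARP gene vps-50 (77.8), sec-8 (73.4) and vps-37 (73.0). A candidate region in both replicate lists was present at 49 of the 77 (63.6%), against 30.2% of all genes. Of the 45 genes without a promoter peak, 5 had an IDR summit within 2000 bp of a start and 29 had none within 5000 bp (11.1% and 64.4%), against 6.17% and 81% of all genes without a promoter peak. An IDR summit inside the gene was present at 0 of the 45, against 2.05% of all genes without a promoter peak.

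Summits lay mostly upstream of the gene. Over the 32 peaks the median distance was 270 bp, and 28 (87.5%) were upstream, against 249 bp and 94% over all pairs of gene and promoter peak. The Rab peaks lay farther out, with a median of 554.5 bp, compared with 269 bp for sec- and 164 bp for vps- genes. However, 8 of the 10 Rab peaks lay in shared windows. Those of rab-1, rab-7, rab-8 and rab-11.1 were nearer the start of the other gene (C39F7.5, W03C9.5, D1037.1 and rpl-7). With a window of only 500 bp upstream, 24 of the 77 genes had a peak, against 9.61% of all genes, and with one of 2000 bp 37, against 15.6%. In the shorter window 4 Rab genes kept a peak and rab-1, rab-3, rab-5, rab-7, rab-8 and rab-11.1 lost theirs. By annotation, 22 summits were intergenic, 4 in introns and 6 in 5′ UTRs.

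**Figure D4:**
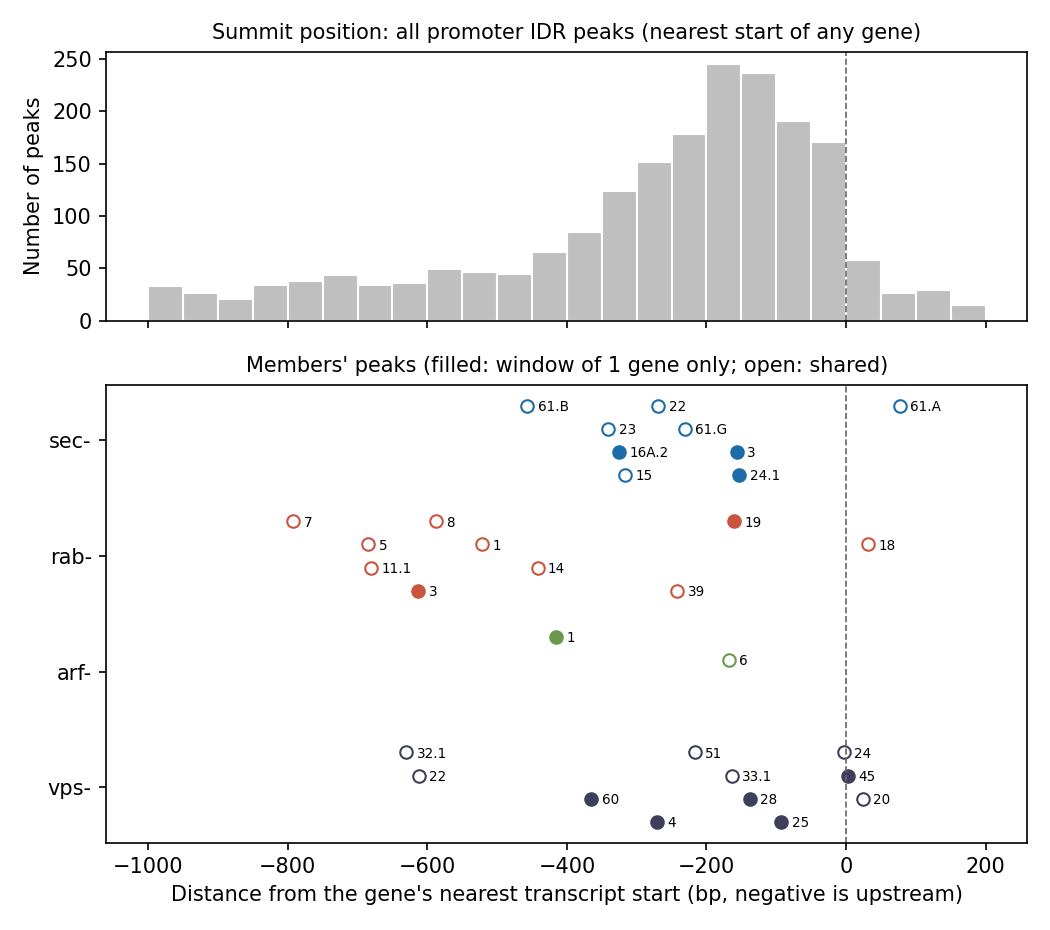
Position of summits relative to transcript starts in bp, with negative values upstream. The upper panel counts all 2010 IDR peaks in promoter windows by distance from the nearest start of any gene, and the lower panel shows each of the 32 peaks by its distance from the named gene (filled where no other gene's window holds the peak, open where one does); 6 of the 10 Rab peaks lie over 500 bp upstream.

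Many of these promoters were shared. For 21 of the 32 genes (65.6%) the peak also lay in the window of another gene, against 46.5% of all genes with a promoter peak (1129 of 2427). In 19 of the 21 the genes lay on both strands, and the same held for 542 of all 585 shared peaks (92.6%). The nearest start belonged to the other gene in 12 of the 32. In 4 cases the other gene had a ribosomal protein (rps-, rpl-) or eif- name: rps-18, rpl-7, eif-1 and eif-4A3, the last known in other animals as a helicase of the exon junction complex. Of these 4 peaks, 0 had RCGTG, against 14 of all 32 and 42.4% of all promoter peaks. With only 4 peaks the difference was not tested. Without windows of genes so named, 28 of the 77 genes had a peak, against 11.5% of all genes. Which of the genes at a shared peak HIF-1 acts on was not measured.

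Having a same-strand gene that ends just upstream went along with fewer peaks. Of the 31 genes with a same-strand protein-coding gene ending within 1000 bp upstream, 5 had a promoter peak (16.1%), against 8.48% of all genes in that position. Of the other 46, 27 had one (58.7%), against 13.6% of all other genes. The 5 were sec-3, sec-16A.2, arf-1, vps-28 and vps-45. For all protein-coding genes the difference between the positions was in the same direction and smaller. An upstream gene that overlaps the gene did not count as such a neighbour. The 46 thus include rab-7 and vps-22, whose peaks also lay upstream of the same-strand genes W03C9.5 and C27F2.9. Whether the genes are transcribed together with their neighbours was not tested.

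RCGTG lay within 50 bp of 14 of the 32 summits (43.8%, 95% interval 26.4% to 62.3%), against 42.4% of all promoter peaks, so the share was near the background. In windows of the same width 500 bp to the left and right of these summits the counts were 7 and 3, and over all promoter peaks 15.7% and 14.6%. By stem, 5 of 9 sec-, 4 of 10 rab-, 2 of 2 arf- and 3 of 11 vps- peaks had it. In the whole window around the most upstream start, 65 of the 77 genes held RCGTG somewhere (84.4%), as did 82.1% of all protein-coding genes. The median signal was 223 at the 14 peaks with RCGTG and 198 at the 18 without, and over all promoter peaks 184.5 and 162.

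For 11 of the 14 peaks with RCGTG the site nearest the summit is shown (those of vps-51, vps-25 and vps-4 are not printed), 5′ to 3′ on the strand of the core with 8 bases on each side and the core in capitals, to show which form of the core each gene carries.
rab-7: ctcgcggcGCGTGtctcatct
sec-61.B: tacgcccgGCGTGcaggtcgg
sec-3: ggccactgGCGTGtttttcgt
rab-14: tctctactGCGTGtctctaac
arf-1: ggcgcgtcGCGTGcgttgcgc
sec-24.1: gagacccaGCGTGctgcgtct
sec-23: aaatgtacACGTGgaggaaga
sec-22: cggcggctACGTGgttaacag
rab-3: gagtgtatGCGTGtatgtgtg
arf-6: agcggcgcGCGTGctatttgc
rab-1: gagaaatgACGTGgcgaggca
On the plus strand lie the sites of sec-61.B (chrIV:2389157-2389177), rab-14 (chrX:15607058-15607078), sec-24.1 (chrIV:11566356-11566376), sec-22 (chrX:1035307-1035327), rab-3 (chrII:5725367-5725387) and rab-1 (chrV:1264482-1264502). On the minus strand lie those of rab-7 (chrII:11967680-11967700), sec-3 (chrX:3100017-3100037), sec-23 (chrV:20090912-20090932), arf-1 (chrIII:5715711-5715731) and arf-6 (chrIV:16946935-16946955). GCGTG lay at 10 of the 32 summits (31.2%) and ACGTG at 6 (18.8%), against 23.8% and 22.5% of all promoter peaks. These differences were not tested. The context GACGTG lay at 4 summits (12.5%; vps-51, vps-4, arf-1 and rab-1), against 5.17% of all promoter peaks. A summit can hold both GCGTG and ACGTG, as at arf-1 and rab-1. The context AACGTG lay at 0 of the 32 summits, against 7.06% of all promoter peaks, and CACGTG at 1 (3.12%), against 4.93%. Differences between contexts were not tested. The sec-23 site is the palindrome CACGTG, read on both strands, within 1 bp of the summit. The sec-22 site is the 1 site at these summits in the context TACGTG, which 6.87% of all promoter peaks hold.

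Other genes of the pathway, in 8 lists of vesicle trafficking genes, had promoter peaks at 59 of the 170 names that matched a gene. This is 34.7%, against 12.2% of all protein-coding genes. The median signal over their 60 peaks was 150, below the 171 of all promoter peaks. RCGTG lay at 28 of the 60, against 42.4% of all promoter peaks. These lists do not include the 77 genes. The count was 10 of 18 for clathrin and its adaptors, led by epn-1, the epsin gene (769), and dpy-23, an AP2 adaptor gene (279). For translocation into the ER it was 8 of 14, led by trap-2 (458) and trap-3 (404), which shares its peak with sec-61.B. For COPII regulators and cargo receptors it was 8 of 16, led by ile-2 (458), a lectin-type cargo receptor gene whose window shares the trap-2 peak, and sar-1 (179), the GTPase that starts the coat.

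The remaining 5 lists had lower shares, all above the 12.2% of all genes. They were 2 of 7 for the COPI coat (copz-1, 370.5, and copd-1, 178.5) and 12 of 40 for small GTPase regulators (unc-108, 304, and rbg-3, 247). The regulator list also holds Rab-family genes with other names, such as unc-108, the C. elegans RAB2 gene. The rbg-3 peak also lay in the window of the ribosomal protein gene rps-0. Endosome sorting had 6 of 23 (snx-13, 535, and snx-3, 286), SNAREs and fusion factors 8 of 32 (aex-4, 466, and nsf-1, 366) and Golgi and vesicle tethers 5 of 20 (exoc-7, the Exo70 gene of the exocyst, 299.6, and cogc-2, 164). The peaks of copz-1, snx-13, snx-3, nsf-1, exoc-7 and cogc-2 also lay in the window of another gene, and those of copd-1, unc-108 and aex-4 did not. For these lists no count without shared windows is given. As with the 77 genes, these lists were drawn up with results of these data known and were not tested.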

How the data were processed

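HIF-1 ChIP-seq was analysed in 2 biological replicates of 1 group. Per the labels and the deposited file lists, the authors deposited candidate regions for each replicate and for both pooled, and an optimal IDR list; no aligner, caller or software version is named in those sources. Each region has a signal that the authors deposited, relative to a control, and no other unit was used. Only the ce11 lists were used. Genes and starts came from Ensembl release 115 (29784 starts) and sequences from the RefSeq copy of WBcel235. Peaks were assigned to genes by summit (start plus summit offset), with Python 3.11.15, numpy 2.4.6 and scipy 1.17.1. The code was tested on simulated summits and motifs.

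The members, lists and roles were chosen with earlier results of these data known, the role of sec-16A.2 after its values were seen, and no test was run. Intervals are exact binomial intervals over genes or peaks and cover counting error only; neighbouring genes are not independent. Named were all members with a promoter peak, the 5 strongest members with only a candidate region, and the 2 strongest of each list; other members without a peak were named after their values were seen. Also chosen after seeing the data were the split by same-strand neighbour, the splits of peaks, the motifs other than RCGTG and the look at regions of single replicates. Motifs were read on both strands. Of 184 names in the other lists, 170 matched. Alternatives were other windows, thresholds, starts and matching distances, each replicate alone, and counting shared peaks once.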

Additional observations from a re-analysis of the deposited data

How the results depend on the processing

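Over 59 alternatives of 11 counts and medians, 49 stayed within 1.5 times the count or inside the interval of the value and 10 moved. Some of the 49 could not move. For arl- genes (0), the window of 500 bp, the strongest 1765 peaks and the most upstream start could only give 0 again. The count of genes with a promoter peak (32) was 20 with each peak counted for the nearest start only and 11 with windows of no other gene, the latter chosen after seeing the data. For rab- genes (10) it was 4 with a window of 500 bp and 5 with the strongest 1765 peaks. For arf- genes (2) it was 1 with the strongest 1765, 1 with the most upstream start and 1 without replicate 2. With only the strongest regions of a single replicate, the ranges were 29 to 34 genes in all, 9 to 10 for sec-, 9 to 10 for rab-, 1 to 2 for arf-, 10 to 12 for vps- and 0 for arl-. Without replicate 1, sec-61.A was lost; without replicate 2, sec-23, rab-19, arf-6, vps-33.1 and vps-45 were. Gained were sec-12, sec-8 and vps-36 without replicate 1 and sec-12 and vps-37 without replicate 2; all genes gave 12.5% and 11.6%. The share with RCGTG was 25% within 25 bp and 62.5% within 100 bp of the summit, where all promoter peaks gave 25.6% and 58.4%. The share found in both replicates was 78.1% with the strongest regions only. The cause was not tested. The read depth is unknown, so peaks near the threshold could not be weighed by depth. No paired analysis was possible because there is 1 group.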

Other observations

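Regions at sec-12, the exchange factor gene of COPII, were present in both replicate lists and absent from the pooled one. Replicate 1 held a region of 75.3 (rank 1417) at chrI:8511250-8511673, 147 bp upstream, and replicate 2 one of 172 (rank 733) at chrI:8511340-8511548, 133 bp upstream. Among the 1000 strongest regions, 11 of replicate 1 and 13 of replicate 2 had no pooled region within 500 bp.

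At 3 places 1 peak lay in the windows of a pair of trafficking genes: sec-61.B with trap-3 (404), ile-2 with trap-2 (458) and smcr-8 with tmem-131 (146). These pairs were chosen after their values were seen. By chromosome, promoter peaks were present at 8 of 15 of the sec-, rab-, arf-, arl- and vps- genes on I (16.1% of all genes there), 5 of 15 on II (12.4%), 4 of 16 on III (17.7%), 5 of 13 on IV (10.3%), 4 of 8 on V (7.79%) and 6 of 10 on X (12.5%).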
